A study of Homo sapiens with 6 samples.

Results

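The tripartite motif (TRIM) family is a large group of mostly RING-type ubiquitin ligases, and 37 of its genes were followed here among the 61517 genes of the count table. They were taken as every row whose symbol is TRIM and a number, without pseudogenes or antisense transcripts, and whose mean over the 6 libraries was at least 0.5 CPM, that is, counts scaled to the library total. Of 66 symbols of that form, 29 were below this level, and 7 of these had 0 counts in every library. The members just inside were TRIM9 at a mean of 0.878 CPM and TRIM65 at 1.43 CPM, and those just outside were TRIM46 at 0.401 CPM and TRIM45 at 0.334 CPM.

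The RNA was that of THP-1, an established human line of leukaemic monocytes, which the series' design text describes as differentiated to macrophages and driven into pyroptosis, a lytic inflammatory cell death, with lipopolysaccharide (LPS) and ATP. The compared groups were 3 libraries from cells that also received ruxolitinib, an inhibitor of the JAK1 and JAK2 kinases, and 3 control libraries from cells that did not. The treatment field gives the drug as Lukotinib, the series title as ruxolitinib. By that text both groups received LPS and ATP, so neither is an unstimulated baseline, and no dose or time is stated in the sources used here. A batch number from 1 to 3 stands in the labels, and each is shared by 1 ruxolitinib and 1 control library.

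A typical TRIM protein carries a RING finger that recruits a ubiquitin-conjugating enzyme, 1 or more B-box zinc fingers and a coiled coil, and most differ in the domain that follows, which binds the target. Many members with a PRY-SPRY domain at this end act in antiviral defence, either on incoming viruses or on the sensors and adaptors that detect viral RNA and DNA. Several, among them TRIM5, TRIM21, TRIM22 and TRIM25, are known interferon-stimulated genes. Interferon receptors signal through JAK kinases to transcription factors, among them STAT2 and IRF9, that bind the interferon-stimulated response element in target promoters.

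Library totals were 18796476 to 19253534 counts with ruxolitinib and 17757595 to 24533979 in control, and 21126 to 21412 genes were detected with ruxolitinib, against 21986 to 24798 in control, where the highest number was in control replicate 2. A count of 0 allowed a level of up to 0.156 to 0.160 CPM in the ruxolitinib libraries and 0.122 to 0.169 CPM in the control libraries, taking 3 counts as the limit and covering counting error only. All 10 listed monocyte and macrophage markers were detected, with a summed level of 621 to 678 CPM with ruxolitinib and 1208 to 1235 CPM in control, 9 of them lower with ruxolitinib and 1, LYZ, higher. Of 15 markers of other cell types, the T cell genes CD3D and CD3E and the globin gene HBB had 0 counts in every library. Of the 6 that could be tested, 3 were lower with ruxolitinib, namely PECAM1, which monocytes also express, PPBP and NKG7. Beside both lists, 16.1% of all tested genes were lower and 13.6% higher, at the threshold given below. The summed level of this second list was 571 to 602 CPM with ruxolitinib and 850 to 918 CPM in control, and 10.96 to 12.2 CPM with ruxolitinib and 30.03 to 31.1 CPM in control without PECAM1. The part of these marker changes in the TRIM results was not tested.

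A set of TRIM genes led by TRIM22, TRIM34, TRIM14 and TRIM25 was lower with ruxolitinib, and most of the family did not pass the test. Of the 37 members, all of which passed the filter on low counts, 12 were lower, 2 were higher and 23 did not pass the threshold, an adjusted p of 0.05 by edgeR's quasi-likelihood test. Over all 14051 tested genes, 29.7% passed, 16.1% lower and 13.6% higher. Among genes past the threshold, a log2 fold change of -1 or below was found for 7 members, against 2.97% of all tested genes. Past the same threshold, 0 members reached 1 or above, against 1.1% of all tested genes. The median log2 fold change was -0.13 over the members and -0.012 over all tested genes. The groups did not overlap for 21 members, against 44.3% of all tested genes. Summed over the 37 members, the level was 879.5 ± 9.39 CPM with ruxolitinib and 1219.7 ± 17.6 CPM in control (SD, n = 3 each). The 12 lower members alone made up 282 ± 5.46 CPM with ruxolitinib and 651 ± 3.30 CPM in control. They were picked for their fall in these same libraries, so the direction of that gap follows from the choice. In bulk RNA, less RNA per cell and fewer cells of a kind cannot be told apart.

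**Figure D1:**
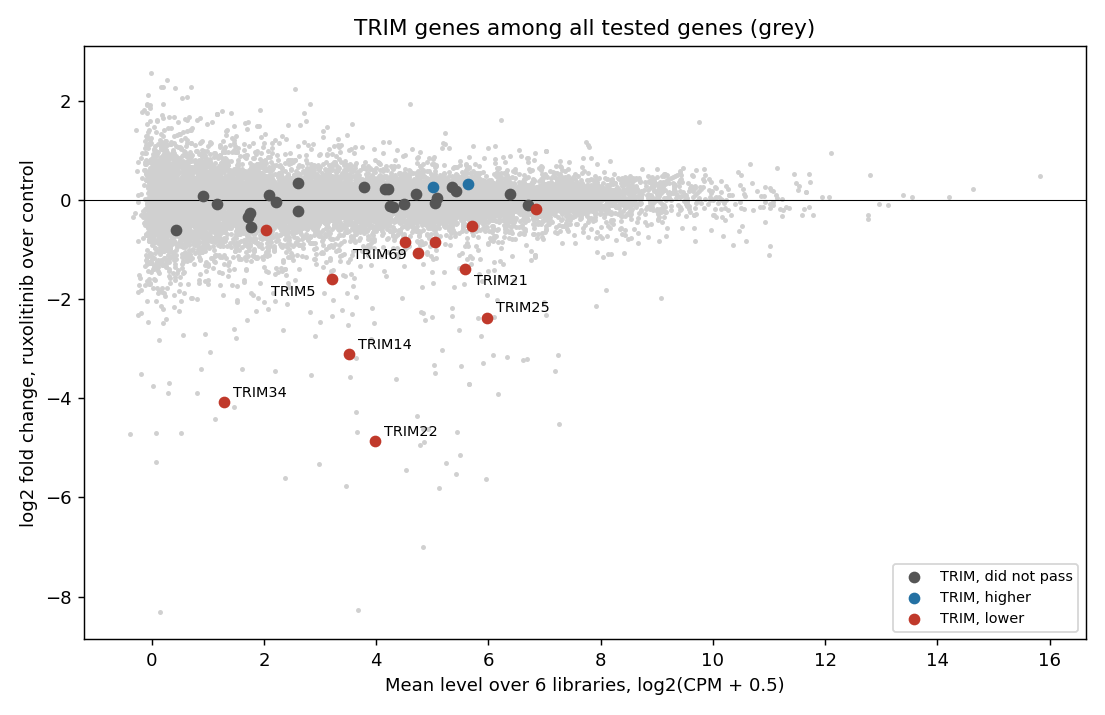
Log2 fold change of ruxolitinib over control (vertical) against the mean level over 6 libraries as log2(CPM + 0.5) (horizontal) for all 14051 tested genes in grey, with the 37 TRIM genes coloured by call. The 7 named TRIM genes lie at -1 or below, and most of the others lie near 0 within the grey band.

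TRIM22, an interferon-inducible ligase that restricts HIV and influenza viruses, had the largest fall of the family. It had 2.83, 3.00 and 2.199 CPM in ruxolitinib replicates 1 to 3, against 78.8, 75.8 and 79.8 CPM in control replicates 1 to 3. The lowest control library was far above the highest ruxolitinib library. The log2 fold change was -4.86 ± 0.09 (SE, n = 3 per group, adjusted p = 1.32e-12), a level 29.1-fold lower with ruxolitinib. The neighbouring TRIM34, a close relative of TRIM5 that acts on retroviral capsids, had 0.210, 0.375 and 0.536 CPM with ruxolitinib, from 4, 7 and 10 counts, against 6.58, 6.09 and 6.51 CPM in control. The groups were far apart, although the ruxolitinib values rest on few counts (log2 fold change -4.08 ± 0.24, adjusted p = 1.56e-07). Its mean with ruxolitinib, 0.374 CPM, was below the member minimum of 0.5 CPM, so it is a member only through its control libraries. The counts of lower members given here include it. TRIM34 shares exons with the read-through gene TRIM6-TRIM34, which had 0 counts in every library, as had TRIM6, so reads of these 3 genes may not have been separated.

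TRIM5 binds the capsids of incoming retroviruses and is the best known restriction factor of the family. It had 5.24, 5.19 and 4.56 CPM with ruxolitinib, against 15.5, 14.997 and 15.2 CPM in control. Both groups were tight and did not overlap, with a log2 fold change of -1.61 ± 0.10 (adjusted p = 3.43e-07). TRIM21, a cytosolic antibody receptor that sends antibody-coated particles to the proteasome, had 30.4, 29.5 and 27.5 CPM with ruxolitinib, against 79.1, 71.4 and 78.4 CPM in control (log2 fold change -1.39 ± 0.06, adjusted p = 1.24e-08). It fell, but it kept the first place among members in level per exon length in both groups, at 15.1 CPM per kb with ruxolitinib and 39.6 CPM per kb in control.

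TRIM25 modifies the RNA sensor RIG-I with ubiquitin and is a cofactor of the antiviral protein ZAP. It had 28.3, 26.1 and 27.7 CPM with ruxolitinib, against 142, 143 and 142 CPM in control, a log2 fold change of -2.38 ± 0.05 (adjusted p = 5.97e-12). Its place among the members by level per exon length was 16 with ruxolitinib and 2 in control. TRIM14 lacks a RING finger and acts with the adaptor MAVS on mitochondria. It had 3.15, 3.64 and 4.13 CPM with ruxolitinib, against 30.7, 31.9 and 31.9 CPM in control, and the log2 fold change was -3.11 ± 0.10 (adjusted p = 3.36e-10). Exons of both genes overlap a gene on the opposite strand, and the strand setting of the counting is not given in the sources used here. TRIM25 also overlaps AC015912.1 on the opposite strand. Among the other lower members, TRIM38 overlaps U91328.2 on the opposite strand, and TRIM5 overlaps AC104389.4 and TRIM22 OR56B1 on the same strand. How counts were divided in these overlaps was not tested. The partner of TRIM14, NANS, had 46.8 ± 1.17 CPM with ruxolitinib and 48.9 ± 1.13 CPM in control, and that of TRIM25, DGKE, had 17.3 ± 0.629 CPM with ruxolitinib and 18.5 ± 0.701 CPM in control (SD, n = 3 each). Neither partner passed the threshold (adjusted p = 0.414 and 0.394). TRIM25 also overlaps C17orf67 on its own strand, which had 3.02 ± 0.384 CPM with ruxolitinib and 4.19 ± 0.589 CPM in control (SD, n = 3 each, log2 fold change -0.48 ± 0.18, adjusted p = 0.0596) with no overlap between groups, and how counts were divided between them was not tested.

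TRIM69, an interferon-inducible ligase known to restrict vesicular stomatitis virus, had 18.0, 18.4 and 17.9 CPM with ruxolitinib, against 39.2, 37.8 and 37.9 CPM in control. The groups did not overlap, and the log2 fold change was -1.08 ± 0.06 (adjusted p = 1.12e-07). TRIM38, which limits Toll-like receptor and TNF signalling through the adaptors TAB2 and TAB3, had 17.9, 15.8 and 16.2 CPM with ruxolitinib, against 31.4, 30.6 and 27.99 CPM in control (log2 fold change -0.85 ± 0.08, adjusted p = 7.64e-06). TRIM56, which has no PRY-SPRY domain and supports STING and TLR3 signalling, had 23.8, 22.8 and 27.0 CPM with ruxolitinib, against 44.0, 49.96 and 38.2 CPM in control (log2 fold change -0.85 ± 0.10, adjusted p = 2.07e-04). The spread of TRIM56 was wide in control, but every ruxolitinib library lay below every control library.

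TRIM44, a RING-less member with a ubiquitin-protease-type zinc finger, had 43.9, 38.3 and 47.3 CPM with ruxolitinib, against 59.6, 65.4 and 61.8 CPM in control (log2 fold change -0.53 ± 0.07, adjusted p = 2.27e-04). TRIM68, first described as a co-activator of the androgen receptor, had 2.67, 2.52 and 3.54 CPM with ruxolitinib, against 4.89, 3.74 and 4.73 CPM in control. Its highest ruxolitinib and lowest control values nearly touched, and the log2 fold change was -0.61 ± 0.19 (adjusted p = 0.0281). That call was lost with DESeq2 (adjusted p = 0.0777), without ruxolitinib replicate 1 or 2 (0.110 and 0.0908), without control replicate 1 or 3 (0.0946 and 0.103), and when batch 1 or batch 3 was dropped (0.250 and 0.0555).

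**Figure D2:**
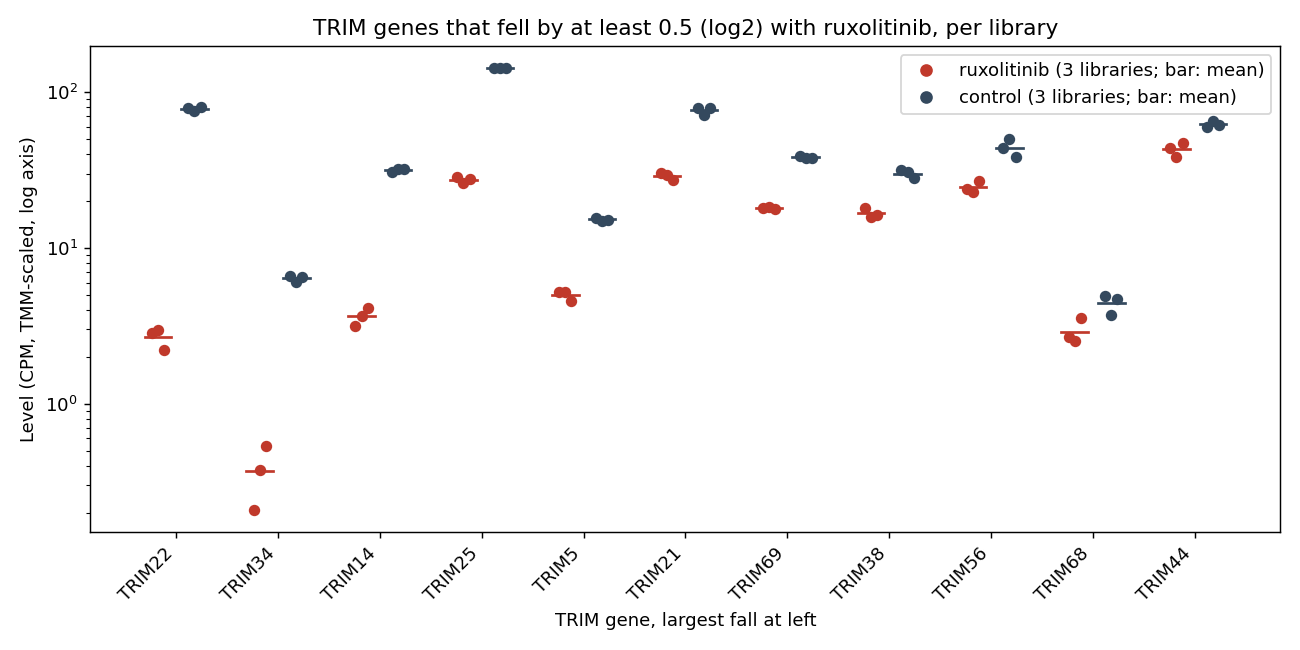
Level of each of 11 TRIM genes (CPM over TMM-scaled totals, log axis) in the 3 ruxolitinib libraries (red, left of each pair) and the 3 control libraries (dark, right), with a bar at each mean. The gap is widest at left, for TRIM22, and narrowest for TRIM68 and TRIM44. Lack of overlap between the groups was a condition for a gene to be shown.

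The core of the interferon-stimulated response element, a pair of GAAA blocks with any 2 bases between them on either strand, was looked for in the RefSeq promoter windows (GRCh38.p14, 250 bases before to 50 after the annotated start), which were found for 28 of the 37 members. It was in a window of 5 of the 6 members with a log2 fold change of -1 or below that have an entry, in 1 of the 5 other lower members, in 0 of the 1 higher member and in 3 of the 16 that did not pass. These are counts of members, and the 28 members have 41 windows. TRIM34, a member only through its control libraries, is among the 5 of 6. Counted by window, the core was in 5 of the 7 of the larger falls and 6 of the 12 of all lower members. The higher member had it in 0 of 2 windows, and those that did not pass in 3 of 27. Over all 35116 windows of the table, 3.57% hold it. The 5 windows of the members with the larger falls are shown because they let the core be compared in letters and place, with the core in capitals. The core of TRIM34, TRIM5, TRIM14 and TRIM69 is read on the opposite strand, and that of TRIM21 is a pair of matches that share 4 bases.
TRIM34 (chr11:5624751-5625050, plus strand): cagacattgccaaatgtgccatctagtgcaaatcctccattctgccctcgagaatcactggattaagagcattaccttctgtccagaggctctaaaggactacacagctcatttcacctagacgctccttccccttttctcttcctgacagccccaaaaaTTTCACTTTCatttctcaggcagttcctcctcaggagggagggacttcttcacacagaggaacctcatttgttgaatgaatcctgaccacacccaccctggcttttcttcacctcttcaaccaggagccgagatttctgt
TRIM14 (chr9:98119173-98119472, minus strand): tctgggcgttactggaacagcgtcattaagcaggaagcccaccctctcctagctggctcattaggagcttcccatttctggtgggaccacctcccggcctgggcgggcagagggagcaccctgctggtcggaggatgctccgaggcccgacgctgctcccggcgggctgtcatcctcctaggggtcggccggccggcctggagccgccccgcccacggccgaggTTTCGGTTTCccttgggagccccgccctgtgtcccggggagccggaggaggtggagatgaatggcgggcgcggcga
TRIM5 (chr11:5685025-5685324, minus strand): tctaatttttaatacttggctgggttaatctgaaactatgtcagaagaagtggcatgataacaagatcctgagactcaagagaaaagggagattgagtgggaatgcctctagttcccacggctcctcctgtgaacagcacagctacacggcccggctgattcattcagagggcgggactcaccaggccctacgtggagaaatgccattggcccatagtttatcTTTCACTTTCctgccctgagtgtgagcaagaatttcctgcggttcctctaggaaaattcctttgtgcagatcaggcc
TRIM21 (chr11:4393653-4393952, minus strand): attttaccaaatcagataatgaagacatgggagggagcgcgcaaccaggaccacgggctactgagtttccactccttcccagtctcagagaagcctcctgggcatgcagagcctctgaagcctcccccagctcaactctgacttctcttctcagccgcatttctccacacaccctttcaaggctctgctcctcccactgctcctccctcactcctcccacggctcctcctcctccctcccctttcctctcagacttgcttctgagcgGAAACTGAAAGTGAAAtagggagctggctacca
TRIM69 (chr15:44736278-44736577, plus strand): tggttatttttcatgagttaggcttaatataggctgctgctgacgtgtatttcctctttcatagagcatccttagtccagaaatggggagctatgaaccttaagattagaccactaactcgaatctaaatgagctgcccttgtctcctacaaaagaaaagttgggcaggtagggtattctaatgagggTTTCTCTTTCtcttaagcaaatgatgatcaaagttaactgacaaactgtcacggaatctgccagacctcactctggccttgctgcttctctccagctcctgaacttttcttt

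The match of TRIM14 began 26 bases before the annotated start and that of TRIM5 27 bases before it, while those of TRIM69 and TRIM34 began 62 and 90 bases before it. In TRIM21 the paired matches began 17 and 23 bases after the start. TRIM34 and TRIM5 hold the same letters, TTTCACTTTC. TRIM25 fell further than TRIM5, TRIM21 and TRIM69, and its window holds no match. The others with a match were TRIM44, with the core 35 bases before the start, and TRIM26, TRIM16 and TRIM2, none of which passed the threshold. TRIM26, a PRY-SPRY member of the MHC region on chromosome 6, holds a pair of matches 194 and 188 bases before its start, and had 15.9, 18.6 and 19.0 CPM with ruxolitinib, against 17.7, 20.3 and 20.3 CPM in control (log2 fold change -0.13 ± 0.09, adjusted p = 0.334). The STAT core TTCNNNGAA, present in 7.66% of all windows, was in a window of 0 of the 11 lower members with an entry, and in TRIM3, TRIM16 and TRIM2. Counted by window, it was in 0 of 12 of lower members and 4 of 27 of those that did not pass. No match of one core overlapped a match of the other. TRIM22 was not in the table of windows.

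**Figure D3:**
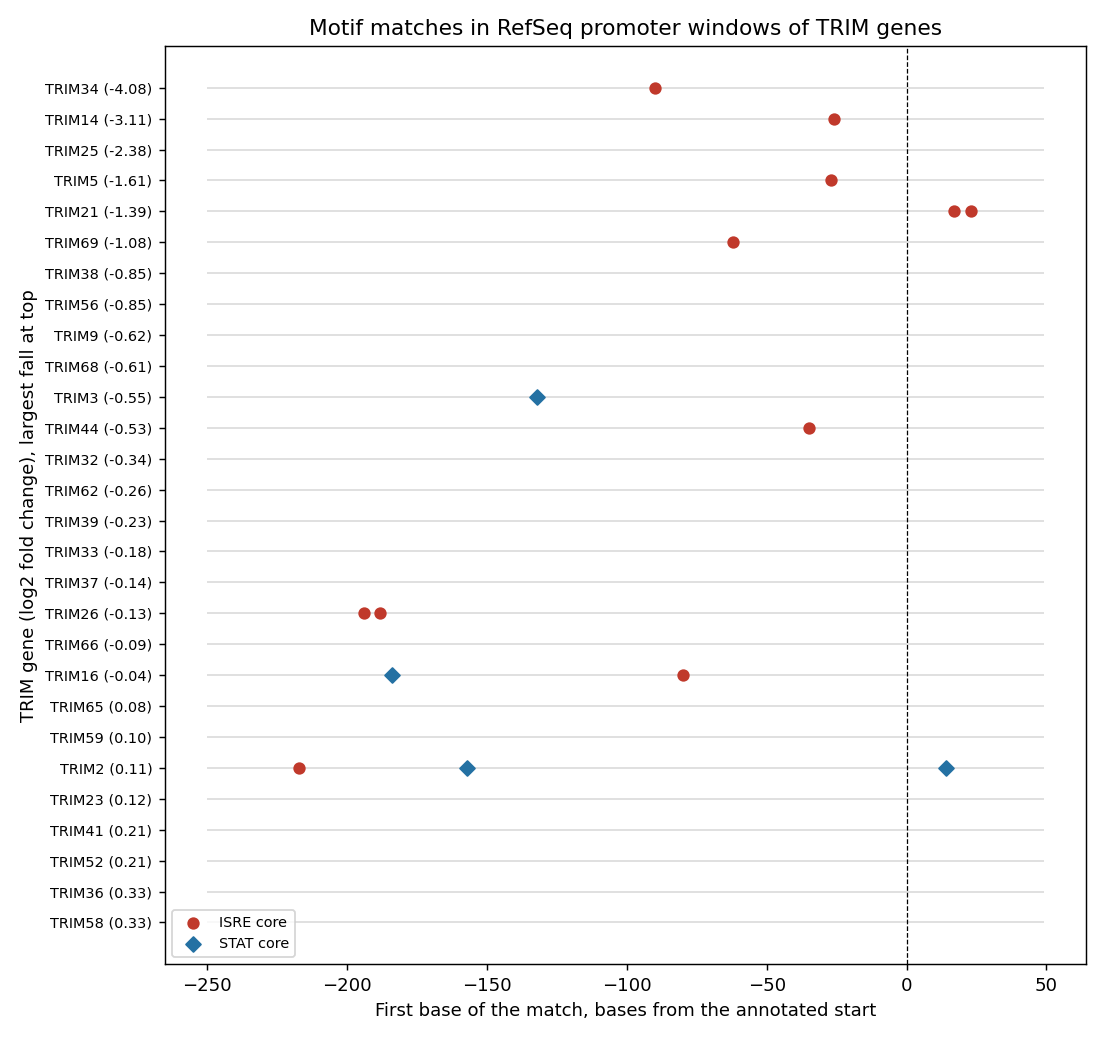
Position of the first base of each match (horizontal, bases from the annotated start, dashed line) in the promoter windows of 28 TRIM genes, ordered from the largest fall at top with the log2 fold change in brackets; red circles are the core of paired GAAA blocks and blue diamonds the TTCNNNGAA core. The red circles at top belong to TRIM34, TRIM14, TRIM5, TRIM21 and TRIM69, and the diamonds lie among the genes that did not pass; genes with several windows share a line, and the diamonds of TRIM2 at -157 and 14 are 1 site seen in 2 windows.

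Chromosome 11 holds 8 of the 37 members, and 6 of these were lower. In GENCODE coordinates on GRCh38, TRIM21 lies at 4384897 to 4393696, TRIM68 at 4598672 to 4608259, TRIM34 at 5619764 to 5644398 and TRIM22 at 5689689 to 5737089, and TRIM5, on the opposite strand to TRIM22, spans 5663557 to 5938619, while TRIM44 lies apart at 35662805 to 35818007. From TRIM21 to the end of TRIM3 at 6474459, 5 of 6 members were lower and TRIM3 did not pass. Only 3 other genes of this stretch could be tested. The olfactory receptor pseudogene OR52K3P was lower, at 0.496 ± 0.106 CPM with ruxolitinib and 3.26 ± 0.382 CPM in control (SD, n = 3 each, log2 fold change -2.71 ± 0.25, adjusted p = 8.37e-06), SMPD1, an acid sphingomyelinase, was lower with a log2 fold change of -0.23 ± 0.07 (adjusted p = 0.0230), and FHIP1B did not pass (0.15 ± 0.13, adjusted p = 0.450). The SMPD1 call was lost with the batch as a block, with DESeq2 and in every fit that left out 1 library or 1 batch (adjusted p = 0.0540 to 0.126). OR52K3P starts at 4393783 on the opposite strand to TRIM21, inside the TRIM21 promoter window shown above. Whether it fell separately from TRIM21 was not tested. Of the 29 members elsewhere, 6 were lower, 2 were higher and 21 did not pass, with a median log2 fold change of -0.066. Over all tested genes, 16.1% were lower and 13.6% higher. The lower ones lay at chromosome 17, 56836387 to 56914080 (TRIM25), chromosome 9, 98069275 to 98119212 (TRIM14), chromosome 15, 44728988 to 44767829 (TRIM69), chromosome 6, 25962802 to 25991226 (TRIM38), chromosome 7, 101085439 to 101097967 (TRIM56), and chromosome 1, 114392777 to 114511160 (TRIM33).

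By domain class, 8 of the 18 members with RING and PRY-SPRY domains were lower, 1 was higher and 9 did not pass, with a median log2 fold change of -0.25. Of the 3 members classed here as RING-less, TRIM14 and TRIM16 also end in a PRY-SPRY domain. TRIM14 and TRIM44 were lower and TRIM16 had -0.041 ± 0.18 (adjusted p = 0.889). Of the 3 with no further domain, TRIM56 was lower, and TRIM8, a regulator of cytokine signalling, and TRIM52 did not pass. Of 4 members with a PHD finger and bromodomain, which act on chromatin, only TRIM33 passed. The NHL-repeat members TRIM2, TRIM3 and TRIM32, the microtubule-binding class with a COS box (TRIM9 and TRIM36), the membrane-anchored TRIM13 and TRIM59, and TRIM23 and TRIM37 held 0 lower members. Beside these, 16.1% of all tested genes were lower and 13.6% higher. The class sizes are small and no test between classes was made.

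**Figure D4:**
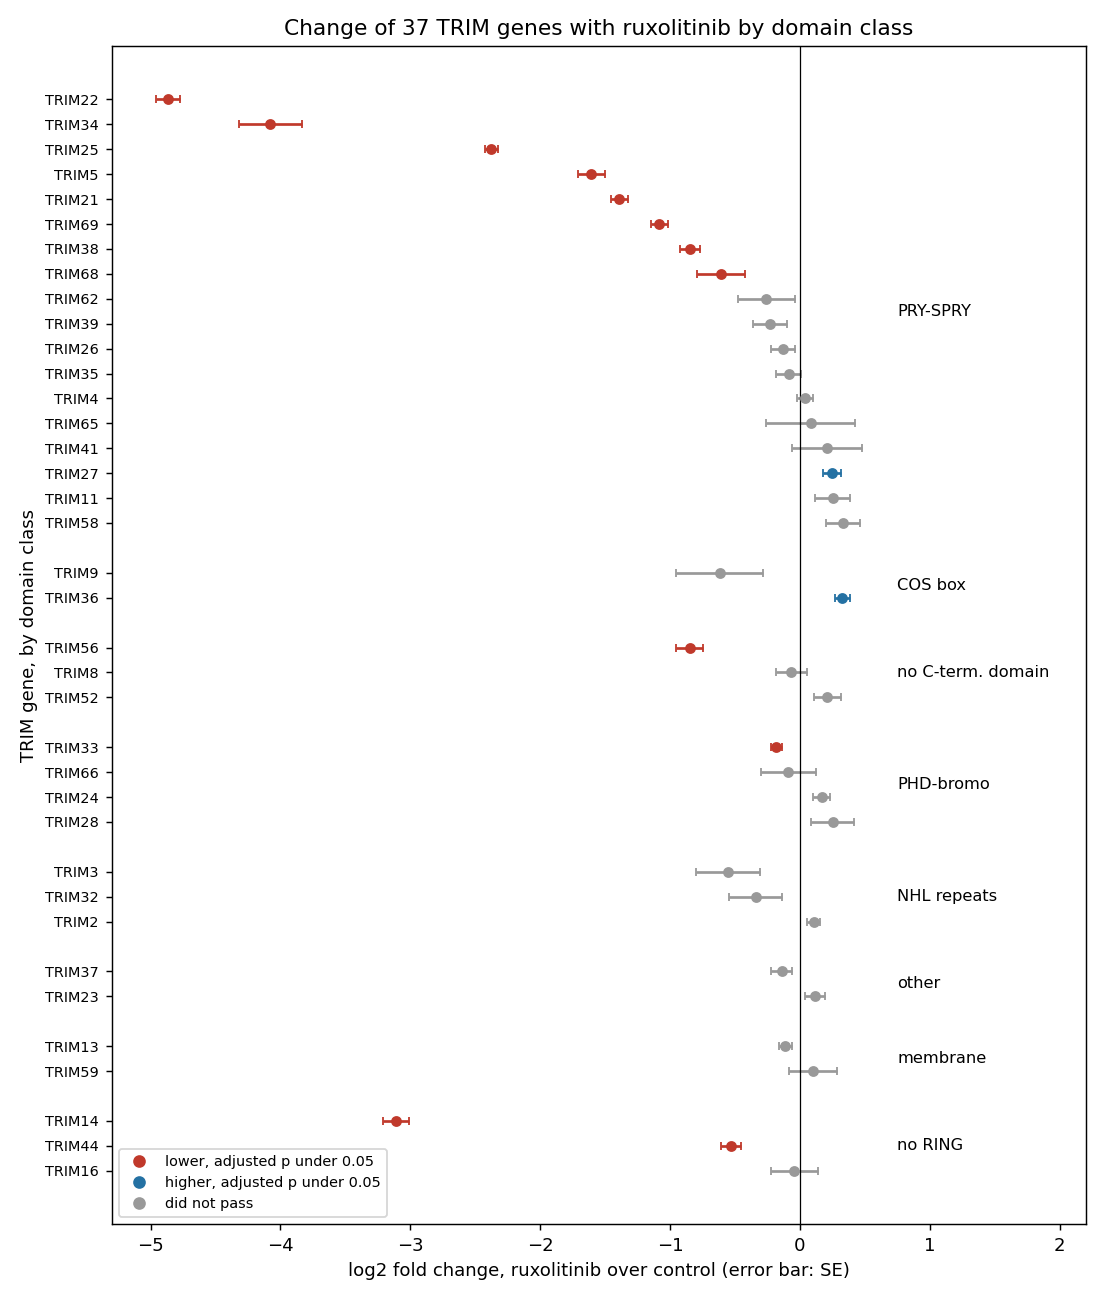
Log2 fold change of ruxolitinib over control (horizontal, error bar SE) for the 37 TRIM genes, grouped into RING-less members and, for those with a RING finger, by the domain that follows the coiled coil, and ordered within each class. Red marks the 12 lower genes, blue the 2 higher genes and grey the 23 that did not pass; 8 of the 12 red points are in the class with RING and PRY-SPRY domains at top.

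TRIM33, TRIM13 and TRIM2 were abundant and had log2 fold changes of -0.18 to 0.11. TRIM33, a chromatin-bound ligase of SMAD4, had 106, 110.0 and 108 CPM with ruxolitinib, against 120, 124 and 123 CPM in control. Its groups did not overlap, and the log2 fold change was -0.18 ± 0.04 (adjusted p = 0.0091, but 0.0573 with the batch as a block, 0.0649 without ruxolitinib replicate 1, 0.0652 without control replicate 3, with 0.153 and 0.0690 when batch 1 or batch 3 was dropped). TRIM13, a ligase of the endoplasmic reticulum, had 97.7, 103 and 97.2 CPM with ruxolitinib, against 113, 103 and 106 CPM in control (-0.11 ± 0.05, adjusted p = 0.128, but 0.0329 when scaled by plain totals and 0.0122 when batch 2 was dropped). Exons of TRIM13 overlap DLEU2 on the opposite strand, which was itself lower with ruxolitinib (2.18 ± 0.330 CPM with ruxolitinib and 5.89 ± 0.842 CPM in control, SD, n = 3 each, adjusted p = 8.30e-05), and KCNRG on the same strand, which was lower too (0.372 ± 0.108 CPM with ruxolitinib and 0.898 ± 0.206 CPM in control, SD, n = 3 each, adjusted p = 0.0228). The KCNRG call was lost with DESeq2 (0.121), without ruxolitinib replicate 1 or 2 or control replicate 3, and when any 1 batch was dropped (0.0617 to 0.105). How counts were divided among these 3 genes was not tested. TRIM2, a ligase of neurofilament light chain in neurons, had 84.1, 88.3 and 84.7 CPM with ruxolitinib, against 81.5, 76.7 and 80.7 CPM in control (0.11 ± 0.05, adjusted p = 0.128, but 0.0488 with upper-quartile scaling).

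Only TRIM36 and TRIM27 were higher. TRIM36, which binds microtubules, had 55.0, 57.3 and 53.0 CPM with ruxolitinib, against 44.2, 42.0 and 45.6 CPM in control, and the groups did not overlap (log2 fold change 0.33 ± 0.06, adjusted p = 0.00114). TRIM27, a nuclear and cytoplasmic ligase of the PRY-SPRY class, had 34.1, 32.6 and 36.7 CPM with ruxolitinib, against 28.6, 30.4 and 28.1 CPM in control (0.25 ± 0.07, adjusted p = 0.0166). The TRIM27 call was lost with the batch as a block (adjusted p = 0.0633), without ruxolitinib replicate 1 or 3 (0.0537 and 0.0619), without control replicate 3 (0.0536), and when batch 1 or batch 3 was dropped (0.158 and 0.167). Fitting the batch as a block left 11 lower members and 1 higher member.

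Some members that did not pass turned on the libraries of batch 2. TRIM28, the KAP1 co-repressor that silences retroelements, had 45.2, 38.8 and 49.3 CPM with ruxolitinib, against 31.7, 45.9 and 33.5 CPM in control. It was higher with ruxolitinib in batches 1 and 3 and lower in batch 2, with log2 ratios within batches 1 to 3 of 0.50, -0.24 and 0.55. The log2 fold change was 0.25 ± 0.16 (adjusted p = 0.311), but 0.44 without control replicate 2 (adjusted p = 0.00249) and 0.53 when batch 2 was dropped (adjusted p = 6.08e-08). TRIM41, a PRY-SPRY ligase of protein kinase C, had 23.1, 14.3 and 22.2 CPM with ruxolitinib, against 14.96, 22.5 and 13.8 CPM in control, and log2 ratios within batches of 0.61, -0.63 and 0.67. Its groups overlapped (0.21 ± 0.27, adjusted p = 0.623), and when batch 2 was dropped the log2 fold change was 0.66 (adjusted p = 2.22e-07). TRIM65, a ligase of the RNA sensor MDA5, had the same order at low levels, 1.52, 1.28 and 1.66 CPM with ruxolitinib, against 0.9001, 2.23 and 0.998 CPM in control (0.082 ± 0.34, adjusted p = 0.885). TRIM8 and TRIM35 had it with smaller ratios in batches 1 and 3, at 0.016, -0.45 and 0.26 for TRIM8 and 0.023, -0.31 and 0.074 for TRIM35. The order was not particular to the family, and genes such as IRF3 and TYK2 had it too. Control replicate 2 was also the library with the most counts and the most detected genes. Among the ruxolitinib libraries, replicate 2 had the lowest values of TRIM28, TRIM41 and TRIM65. The part of either batch 2 library in these values was not tested.

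Without control replicate 2, TRIM11, TRIM52 and TRIM58 also passed (log2 fold changes 0.39, 0.29 and 0.42, adjusted p = 0.0222, 0.0493 and 0.0424). TRIM11, a PRY-SPRY ligase known for clearing misfolded proteins, otherwise had 0.25 ± 0.13 (adjusted p = 0.188), TRIM52 had 0.21 ± 0.11 (adjusted p = 0.156) and TRIM58, which acts in maturing red cells, had 0.33 ± 0.13 (adjusted p = 0.0791). When both libraries of batch 2 were dropped, TRIM37, a ligase linked to centrosomes, passed (-0.23, adjusted p = 0.0415), against -0.14 ± 0.08 (adjusted p = 0.226) with all libraries. TRIM3 passed without ruxolitinib replicate 3 (-0.78, adjusted p = 0.0481) and otherwise had -0.55 ± 0.24 (adjusted p = 0.113), and TRIM24, a nuclear receptor co-regulator, passed with upper-quartile scaling (0.20, adjusted p = 0.0315) and otherwise had 0.17 ± 0.06 (adjusted p = 0.0661).

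The remaining members that did not pass were TRIM4, TRIM8, TRIM9, TRIM16, TRIM23, TRIM26, TRIM32, TRIM35, TRIM39, TRIM59, TRIM62 and TRIM66. Their log2 fold changes lay between -0.62 ± 0.33 for TRIM9, which had 8 to 19 counts in the ruxolitinib libraries, and 0.12 ± 0.08 for TRIM23, a ligase with a GTPase domain. The smallest adjusted p among them was that of TRIM9, at 0.196. The standard errors of TRIM9, TRIM65, TRIM41 and TRIM3 were 0.33, 0.34, 0.27 and 0.24, against 0.06 for TRIM36.

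**Figure D5:**
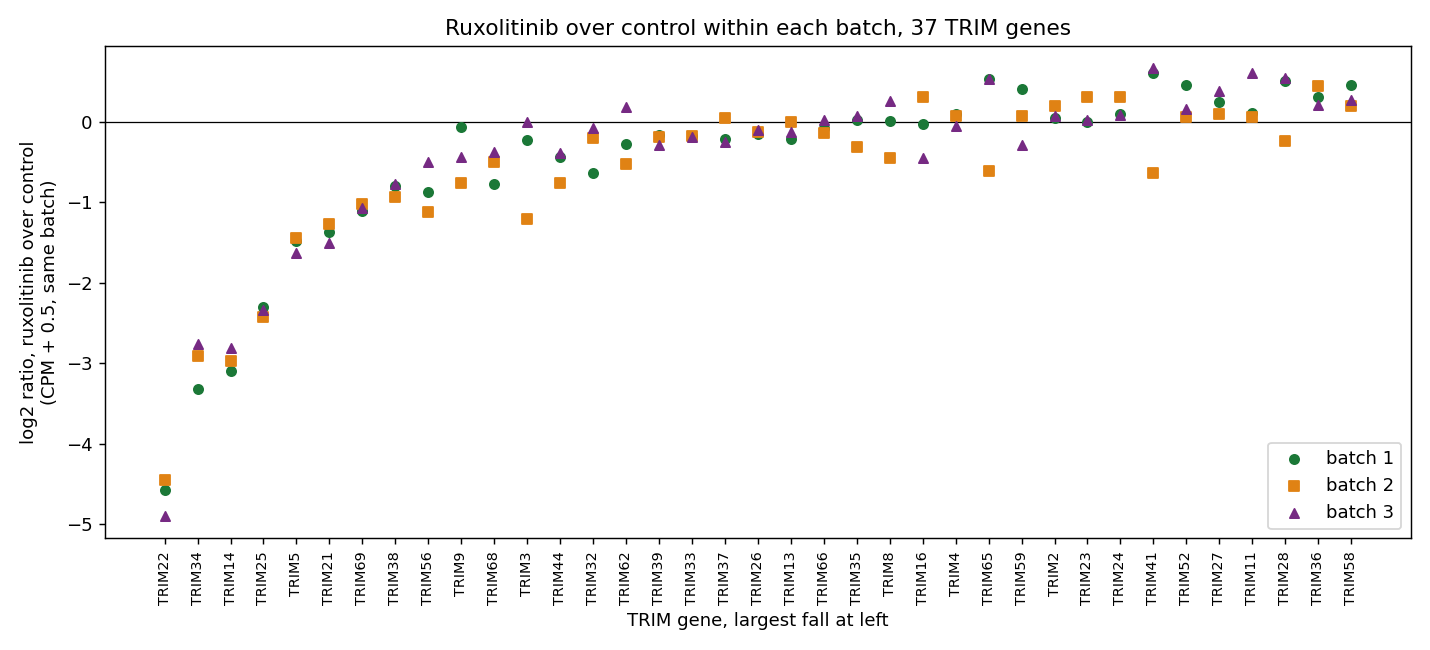
Log2 ratio of ruxolitinib over control within each of the 3 batches (vertical, CPM + 0.5; circles batch 1, squares batch 2, triangles batch 3) for the 37 TRIM genes, ordered by log2 fold change. The 12 lower genes lie below 0 in all 3 batches and the 2 higher genes above 0. TRIM8, TRIM28, TRIM35, TRIM41 and TRIM65 lie above 0 in batches 1 and 3 and below 0 in batch 2.

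Family members that carry other symbols were read beside these. PML, also called TRIM19, which builds nuclear bodies, had 5.77, 4.44 and 6.38 CPM with ruxolitinib, against 19.4, 23.2 and 18.3 CPM in control (log2 fold change -1.88 ± 0.14, adjusted p = 1.49e-06). MEFV, or TRIM20, the inflammasome sensor pyrin, had 2.43 ± 0.261 CPM with ruxolitinib and 4.52 ± 0.115 CPM in control (SD, n = 3 each, -0.89 ± 0.16, adjusted p = 0.00124). MID2, or TRIM1, a microtubule-binding ligase, was at 13.4 ± 0.413 CPM with ruxolitinib and 16.2 ± 0.603 CPM in control (-0.28 ± 0.08, adjusted p = 0.0238). The MID2 call was lost with the batch as a block (adjusted p = 0.0851), with DESeq2 (0.118), and without any 1 library other than ruxolitinib replicate 3 or any 1 batch pair (0.0509 to 0.120). MID1, or TRIM18, was too low to test, with 2 to 5 counts with ruxolitinib and 1 to 6 counts in control. The TRIM16 copy TRIM16L had 27, 42 and 28 counts with ruxolitinib, against 20, 25 and 39 counts in control, and reads of the near-identical TRIM16 and TRIM16L may not have been separated.

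Genes that TRIM proteins act with were described from 3 further lists. Of 20 tested innate sensing genes, 7 were lower, 1 was higher and 12 did not pass, with a median log2 fold change of -0.092. The RNA sensor genes DDX58, which encodes the TRIM25 target RIG-I, and IFIH1, which encodes MDA5, had log2 fold changes of -4.62 ± 0.09 (adjusted p = 1.11e-12) and -3.72 ± 0.07 (adjusted p = 1.74e-12). DHX58, the third RIG-I-like receptor gene, had -2.74 ± 0.12 (adjusted p = 8.05e-09), and ZC3HAV1, which encodes ZAP, had -0.77 ± 0.05 (adjusted p = 3.01e-07). IRF7, IKBKE and STING1 were the other lower genes and TBK1 was the higher one. Of adaptor genes whose products TRIM proteins modify, 3 that did not pass were MAVS at 0.049 ± 0.12 (adjusted p = 0.799), TAB2 at 0.14 ± 0.05 (adjusted p = 0.0611) and TRAF6 at 0.037 ± 0.06 (adjusted p = 0.691).

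Of 13 tested genes of ubiquitin-conjugating (E2) enzymes and the segregase VCP, 3 were lower, 2 were higher and 8 did not pass, and the largest change in size was -0.34 ± 0.06 for UBE2E2 (adjusted p = 0.00123). UBE2N, whose product builds the chains that TRIM5 and TRIM21 use in signalling, had 104.5 ± 7.44 CPM with ruxolitinib and 105.1 ± 6.04 CPM in control (-0.0068 ± 0.06, adjusted p = 0.950). VCP was at 0.23 ± 0.04 (adjusted p = 0.00198), UBE2V2, the partner of UBE2N, at 0.31 ± 0.07 (adjusted p = 0.00942), and UBE2E1 at -0.19 ± 0.05 (adjusted p = 0.0168). When batch 1 was dropped, the calls of VCP and UBE2V2 were lost (adjusted p = 0.103 and 0.0590). That of UBE2E1 was lost with the batch as a block (0.0786), without either of ruxolitinib replicates 1 and 3 or control replicates 1 and 3 (0.0520 to 0.116), and when batch 1 or batch 3 was dropped (0.296 and 0.147).

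Of 11 genes that work with TRIM28 or TRIM33 on chromatin, 3 were higher, 2 were lower and 6 did not pass, with a median log2 fold change of 0.092. SMAD3, which carries TGF-beta signals, rose by 0.50 ± 0.09 on the log2 scale (adjusted p = 0.00125). CBX1, a heterochromatin protein gene, had 0.23 ± 0.06 (adjusted p = 0.0129, but 0.0580 with the batch as a block, with 0.114 and 0.0550 when batch 1 or batch 2 was dropped). HDAC1, a histone deacetylase gene, had 0.17 ± 0.05 (adjusted p = 0.0176, but 0.0842 with the block, 0.0904 without ruxolitinib replicate 1, 0.0817 without control replicate 1 and 0.284 when batch 1 was dropped). ATF7IP, a cofactor of SETDB1, had -0.19 ± 0.06 (adjusted p = 0.0352), a call lost under 10 of 17 settings, the block among them (0.0540 to 0.269). Over the 3 lists, 12 of 44 tested genes were lower and 6 higher, or 27.3% and 13.6%. Over all tested genes the shares were 16.1% and 13.6%. By list, the lower shares were 35% for innate sensing, 23.1% for ubiquitin-conjugating and 18.2% for chromatin genes. The higher shares were 5%, 15.4% and 27.3% in the same order. A batch block left 7 lower genes and 4 higher ones over the 3 lists.

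Among genes of interferon signalling itself, the transcription factor gene STAT2 had 57.6 ± 7.25 CPM with ruxolitinib and 127 ± 4.32 CPM in control (SD, n = 3 each), a log2 fold change of -1.14 ± 0.08 (adjusted p = 4.81e-06). IRF9 had 12.5 ± 1.00 CPM with ruxolitinib and 61.3 ± 0.222 CPM in control (SD, n = 3 each), a log2 fold change of -2.29 ± 0.07 (adjusted p = 1.66e-10). The transcription factor gene IRF1 and the kinase and receptor genes JAK2, JAK1 and IFNGR1 were lower, with log2 fold changes of -0.42 ± 0.06, -0.28 ± 0.07, -0.16 ± 0.05 and -0.16 ± 0.05 (adjusted p = 1.47e-04, 0.0125, 0.0258 and 0.0290), and IFNAR1 was higher (0.19 ± 0.06, adjusted p = 0.0313). IFNGR2, IFNAR2 and TYK2 did not pass, with 0.12 ± 0.04, -0.15 ± 0.07 and 0.34 ± 0.16 (adjusted p = 0.0562, 0.154 and 0.174). The JAK2 call was lost without ruxolitinib replicate 1 or control replicate 1 (adjusted p = 0.0742 and 0.0845) and when batch 1 or batch 3 was dropped (0.246 and 0.0539). The calls of JAK1 and IFNGR1 were lost with the batch as a block (0.103 and 0.111), with DESeq2, with median-ratio or upper-quartile scaling, without replicate 1 or 3 of either group, and when batch 1 or batch 3 was dropped (0.0636 to 0.265 over these). That of IFNAR1 was lost with the block (0.0971), with plain totals, without ruxolitinib replicate 1 or 2 or control replicate 2 or 3, and when batch 1 or batch 2 was dropped (0.0532 to 0.137). TYK2 passed when batch 2 was dropped (0.60, adjusted p = 6.73e-09), without control replicate 2 (0.52, adjusted p = 5.49e-04), with DESeq2 (0.0155) and with no low-count filter (0.00237). IFNGR2 passed with upper-quartile scaling (0.0191) and without ruxolitinib replicate 3 (0.0463), and IFNAR2 without control replicate 2 (0.0408) and when batch 2 was dropped (0.0468).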

How the data were processed

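Poly-A-selected RNA was sequenced in 6 THP-1 libraries, 3 with ruxolitinib and 3 control, grouped by sample title. The deposited values are the authors' raw counts of reads for each gene; the build was hg38 per the submitters' processing notes, and no aligner, counter or strand setting is stated in the sources used here. Members and gene lists were chosen with earlier results of these data known, so counts over them are descriptions.

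Differential expression was fitted over the whole table with edgeR 4.0.16 in R 4.3.3 (quasi-likelihood, robust, TMM factors) after filterByExpr with a minimum count of 10 and minimum total of 15, and p-values were Benjamini-Hochberg adjusted over 14051 genes. Every adjusted p comes from this test unless another is named. A positive log2 fold change is higher with ruxolitinib, and standard errors (SE) derive from the coefficient and its F statistic. CPM values use TMM-scaled totals, and levels per kb use exon lengths from GENCODE 29 (GRCh38), where all 37 members were found. The member minimum used unscaled totals. Values for every library were given for members past the threshold with no overlap between groups and an absolute log2 fold change from 0.5 up, and for the 5 with the highest mean CPM. Those of TRIM36, TRIM27, TRIM26, TRIM28, TRIM41, TRIM65 and PML, and the OR52K3P, SMPD1, FHIP1B, MAVS, TAB2, TRAF6, UBE2N, TRIM16L, overlapping-gene and interferon signalling values, were added after they were seen. Separate cultures are not stated in the labels, and the p-values therefore rest on a spread between libraries that may be technical only; replicates of a group differed beyond counting noise (chi-square per degree of freedom 3.38 to 21.1).

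The labelled batch numbers pair the libraries. Across genes, the 3 same-numbered pairs deviated from their group means with correlations of -0.026, -0.268 and -0.15, so only the label makes the pairing. The fit with the batch as a block was an alternative, beside median-ratio and upper-quartile scaling, plain totals, no low-count filter or a minimum of 1 CPM in 3 libraries, the tools DESeq2 1.42.0 and limma-voom (limma 3.58.1), omitting every library or batch in turn, and 3 other member rules. The procedure was tested on simulated counts. Promoter windows are RefSeq's (GRCh38.p14). The count over the list of interferon signalling genes is not reported here.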

Additional observations from a re-analysis of the deposited data

How the results depend on the processing

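Of the 14 members past the threshold, 11 stayed past it under all 17 alternative fits and none changed direction; the calls of TRIM33, TRIM27 and TRIM68 were lost under at least 1. Among members, the replicate block (the batch pairing) changed no call but those of TRIM33 and TRIM27. Of the 23 that did not pass, 10 did under at least 1 alternative. The cause of these changes was not tested. Members higher numbered 2 and became 4 with upper-quartile scaling, 1 with the replicate block, and 1 to 6 when a library or a batch was dropped (6 without control replicate 2 and 6 when batch 2 was dropped). Members lower numbered 12, and when a library or a batch was dropped there were 10 to 14, with a median member log2 fold change of -0.18 to -0.099. Partner genes lower numbered 12 and became 7 with the replicate block and 7 to 13 when a library or a batch was dropped; partner genes higher numbered 6 and ranged from 1 (batch 1 dropped) to 10 (batch 2 dropped). Over all genes, 4175 passed, against 1983 when batch 1 was dropped and 5034 when batch 2 was dropped. A member minimum of 0.1 or 2 CPM, or adding letter-suffixed and read-through symbols, gave the same counts of 12 lower and 2 higher.

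The fold change turned its sign in some fits with a library or a batch dropped, always for members that passed neither there nor with all libraries. TRIM59 had -0.082 without ruxolitinib replicate 1 and -0.11 when batch 1 was dropped, in a range over single libraries of -0.082 to 0.25. TRIM8 had 0.016 without ruxolitinib replicate 2, 0.057 without control replicate 2 and 0.15 when batch 2 was dropped, in a range over single libraries of -0.16 to 0.057. TRIM16 had 0.11 without ruxolitinib replicate 3, 0.027 without control replicate 3 and 0.17 when batch 3 was dropped, with a lowest value of -0.18 over single libraries. TRIM35 had 0.029 without control replicate 2 and 0.048 when batch 2 was dropped, with a lowest value of -0.14 over single libraries. TRIM65 had -0.000164 without ruxolitinib replicate 3, -0.11 and -0.098 without control replicate 1 or 3, and -0.14 and -0.20 when batch 1 or batch 3 was dropped, with a highest value over single libraries of 0.63. TRIM41 had -0.012 when batch 3 was dropped. Few counts lie behind TRIM34 (4 to 10 per ruxolitinib library) and TRIM9 (8 to 19).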
